A study of Rattus norvegicus with 9 samples.

Results

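Cells make cholesterol from acetyl-CoA through the mevalonate pathway, and the genes of that route, of its control by the SREBP transcription factors, and of sterol transport are described here in rat cartilage progenitor cells. The set holds 29 genes, chosen by symbol from the 34267 genes of the deposited expression table, and each symbol matched 1 row. They comprise 7 enzymes of the mevalonate part of the route (Acat2, Hmgcs1, Mvk, Pmvk, Mvd, Idi1 and Fdps), 11 enzymes from squalene to cholesterol (Fdft1, Sqle, Lss, Cyp51, Tm7sf2, Msmo1, Nsdhl, Hsd17b7, Ebp, Sc5d and Dhcr7), and 5 SREBP factors and regulators (Srebf1, Srebf2, Scap, Insig1 and Insig2). The other 6 are the sterol carrier Stard4, the fatty acid enzymes Fasn, Scd and Acaca, and the sterol exporters Abca1 and Abcg1. The cells were wild-type primary cultures from condylar cartilage of Rattus norvegicus, in 3 groups of 3 libraries of polyadenylated RNA. The P9 group held cells at passage 9, the study's model of replicative senescence, in which cells stop dividing after long culture. The FFSS group held passage 3 cells under flow fluid shear stress, that is, under the pull of liquid streaming across them, as a model of degeneration by mechanical load. The P3 group held cells at passage 3 and was the control of both. The labels do not say whether the replicates came from separate animals or cultures. The p-values thus set group differences against a spread between these libraries that may be technical.

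SREBP factors are made as membrane proteins of the endoplasmic reticulum, bound to the escort protein Scap. When sterols are low, Scap carries them to the Golgi, where proteases release the part that enters the nucleus and switches on genes of sterol and fatty acid synthesis; when sterols are high, the Insig proteins hold Scap back. Oxysterols act on another factor, the liver X receptor (LXR), which raises the exporters Abca1 and Abcg1 and the Srebf1 gene itself. In cartilage, cholesterol is also attached to hedgehog proteins, which steer the growth of chondrocytes.

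Each library had between 13264930 and 15323790 fragments on genes. Values are FPKM, fragment counts divided by gene length and a library size, so levels of different genes can be set side by side. The library size behind the deposited values was not the plain total of fragments on genes. It was 1.46e+07 for FFSS replicate 2, with 15189958 fragments, and 1.62e+07 for P9 replicate 3, with 15323790. The alternative named library totals used the plain totals in its place. Of the 29 genes, 28 reached 1 FPKM in 3 or more libraries, as did 13059 genes of the whole table, and were tested. Abcg1 did not and was not tested. FFSS replicate 1 stood apart from its group. Across the 13059 genes its log2(FPKM + 1) values correlated at 0.915 and 0.947 with FFSS replicates 2 and 3, which correlated at 0.969 with each other, and at 0.936 to 0.945 with the 3 P3 libraries. Results that rest on FFSS replicate 1 are given with and without it. The markers of cartilage progenitors and chondrocytes were mixed. Col2a1, the main cartilage collagen, was near absent, at 0 to 0.191 FPKM in P9, 0.0297 to 0.378 FPKM in FFSS and 0.703 to 1.06 FPKM in P3 libraries. Prg4 was at 0 to 0.0778 FPKM in P9, 1.768 to 41.85 FPKM in FFSS and 0.7975 to 9.28 FPKM in P3 libraries. Sox5 was at 0.0946 to 0.2116 FPKM in P9, 1.988 to 2.655 FPKM in FFSS and 0.2512 to 0.8017 FPKM in P3 libraries. Col11a1 was at 194 to 307 FPKM in P9, 405 to 523 FPKM in FFSS and 809 to 918 FPKM in P3 libraries. Sox9 was at 5.012 to 7.997 FPKM in P9, 9.815 to 15.27 FPKM in FFSS and 4.061 to 4.793 FPKM in P3 libraries. Acan, the large cartilage proteoglycan, was at 499 to 609 FPKM in P9, 29.3 to 48.2 FPKM in FFSS and 122 to 135 FPKM in P3 libraries, and the progenitor surface marker Thy1 was at 823 to 1196 FPKM in P9, 1296 to 1437 FPKM in FFSS and 824 to 949 FPKM in P3 libraries. The surface marker Eng was at 23.26 to 35.68 FPKM in P9, 72.96 to 120.8 FPKM in FFSS and 53.55 to 62.88 FPKM in P3. For Nt5e these ranges were 3.238 to 4.908, 6.178 to 11.24 and 6.608 to 6.952 FPKM. For Cd44 they were 140.7 to 149.5, 144.6 to 183.9 and 167.3 to 179.2 FPKM. For Sox6 they were 0.9472 to 1.699, 7.583 to 9.569 and 4.989 to 6.066 FPKM.

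Promoter windows of 250 bases before the gene start were read from RefSeq (build GRCr8) for 22 of the 29 genes, in 23 windows because Srebf1 has entries for a pair of starts. They were searched on both strands for 4 motifs. TCACNCCAC, a core of the sterol regulatory element that SREBP factors bind, was in 0 of 23 windows, against 0.955% of the 9637 windows of tested genes and 0.974% of all 33469 windows in the table. CCAAT, the box bound by NF-Y, was in 17 windows (73.9%), against 35.5% of those of tested genes and 34.0% of all. GGGCGG, the GC box bound by Sp1 and its relatives, was in 19 windows (82.6%), against 59.5% and 30.5%, and CACGTG, an E-box, was in 4 windows (17.4%), against 8.09% and 5.59%. These are matches of letters in a short window, and a window without a match says nothing of the factor. The windows printed with the genes belong to genes that had a window and were called in a comparison with P3 or came next by adjusted p. Stard4 was also called against P3 but had no RefSeq window to print. Capitals in the printed windows mark every match to these motifs, on either strand.

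Under shear stress, 4 of the 28 tested genes were higher than in P3 and none was called lower. The risers were Abca1, the exporter that loads cholesterol onto apolipoproteins, Stard4, a soluble protein that carries sterols between membranes, Ebp, a sterol isomerase late in the route, and Scap. They make 14.3% of those tested, against 11.4% of all tested genes called higher in FFSS, so the share of calls was near that of the whole table. Of the other direction, 0 members were called lower, against 10.4% of all tested genes; 2 of them, Fasn and Acaca, had an unadjusted p under 0.05, and voom on the recovered fragments also called 0. The median log2 difference of the 28 genes was 0.31, against -0.01 over all tested genes, and 23 of them had a positive value. In 7 of the 29 genes every FFSS library lay above every P3 library, and in 2 every FFSS library lay below, against 20.1% and 22.3% of all tested genes. Without P3 replicate 1 or without P3 replicate 2, 2 members were called higher, and without FFSS replicate 1, 7 were.

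At passage 9, 1 of the 28 tested genes was called against P3. Srebf1, which encodes the SREBP factors that act mainly on fatty acid genes, was lower in P9, at 3.57% of the members tested against 4.44% of all tested genes called lower. No member was called higher, against 5.39% of all tested genes, none had an unadjusted p under 0.05 in that direction, and voom called 0. The median log2 difference was -0.23, against -0.0026 over all tested genes, and 25 of the 28 values were negative. In 1 of the 29 genes every P9 library lay below every P3 library, and in 0 above, against 19.1% and 20.9% of all tested genes. These comparisons use the same 3 P3 libraries.

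Between the models directly, 11 of the 28 tested genes were lower in P9 than in FFSS and 1 was higher. They make 39.3% of the members tested, against 15.3% of all tested genes called lower in P9, and the 1 called higher, Acaca, makes 3.57%, against 16.1%. The 11 were Pmvk and Idi1 of the mevalonate part, Lss, Ebp and Dhcr7 of the sterol part, Srebf1, Scap and Insig1 of the SREBP system, Stard4, Scd and Abca1. The median log2 difference was -0.68, against 0.0029 over all tested genes, with 25 of 28 values negative. In 17 of the 29 genes every P9 library lay below every FFSS library, against 20.0% of all tested genes, and in 1 every P9 library lay above, against 22.2%. Leaving out single libraries moved the count called lower: it was 7 without FFSS replicate 2, 5 without FFSS replicate 3, 7 without P9 replicate 2 and 6 without P9 replicate 3. It rose to 13 without FFSS replicate 1, with Insig2 and Tm7sf2 gained, and to 13 without P3 replicate 2, with Mvd and Tm7sf2 gained. Ebp, Srebf1, Insig1, Stard4 and Abca1 were called lower in each of those fits.

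**Figure D1:**
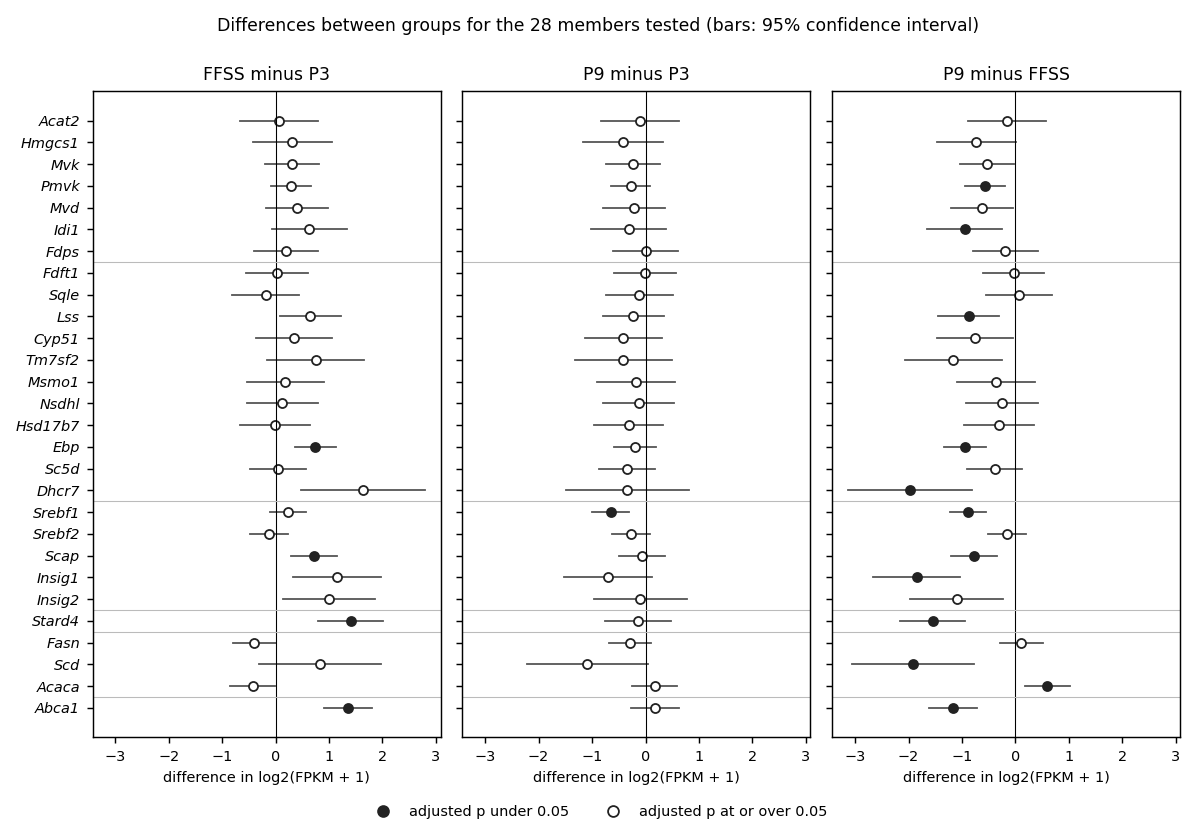
Difference in log2(FPKM + 1) for the 28 tested genes, in rows grouped by role, for FFSS minus P3, P9 minus P3 and P9 minus FFSS; points are limma estimates, bars their 95% confidence intervals, and filled points have an adjusted p under 0.05. The filled points number 4 for FFSS minus P3, 1 for P9 minus P3 and 12 for P9 minus FFSS, and in the last panel 25 of the 28 points lie left of 0.

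Levels of other cell types' markers moved with the groups. The summed FPKM of the leukocyte list, of which 6 of 7 genes had a row, was 5.14 to 5.66 in P9, 42.3 to 106 in FFSS and 9.60 to 11.1 in P3 libraries. Most of it was Cd14, at 39.9 to 94.3 FPKM in FFSS and 8.76 to 9.86 FPKM in P3 libraries, and Cd14 and Cd68 were the 2 genes of the list whose FFSS libraries all lay above the P3 ones. The pan-leukocyte gene Ptprc was at 0 to 0.04 FPKM in FFSS and 0 to 0.0268 FPKM in P3 libraries. The macrophage genes Csf1r and Lyz2 were at 0.0840 and 0.0562 FPKM in FFSS replicate 1, 3.17 and 5.37 FPKM in FFSS replicate 2, and 2.08 and 2.94 FPKM in FFSS replicate 3. The adipocyte list summed to 0 to 0.193 FPKM in P9, 2.27 to 14.3 FPKM in FFSS and 0.717 to 0.843 FPKM in P3 libraries. Of it, Fabp4 was at 0 to 0.0928 FPKM in P9, 2.11 to 14.2 FPKM in FFSS and 0.508 to 0.652 FPKM in P3, with Adipoq at 0 in every FFSS library. The endothelial list stayed under 1 FPKM in every library, with Cdh5 and Tie1 at 0 throughout. The muscle list summed to 108 to 161 FPKM in P9, 3.67 to 27.9 FPKM in FFSS and 14.4 to 47.8 FPKM in P3 libraries. Most of its P9 sum was Myh11, at 68.5 to 117.5 FPKM, and Acta1, at 35.1 to 42.5 FPKM. Its other genes, Des, Ckm, Myh3 and Myog, stayed under 1 FPKM in every P9 library. The list of Schwann cells and neurons summed to 22.2 to 33.0 FPKM in P9, 80.7 to 113 FPKM in FFSS and 28.2 to 44.1 FPKM in P3 libraries, most of it S100b, which cartilage cells also express. Mitochondrial genes took 2.31% to 2.56% of fragments in P9, 2.96% to 3.75% in FFSS and 2.12% to 2.32% in P3 libraries. The part of these differences in the results was not tested, and in bulk RNA fewer cells of a type and less RNA per cell cannot be told apart.

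Insig1, an SREBP target whose product holds Scap back when sterols are high (chr4:342302-350515 of Rnor_6.0, plus strand), was the most abundant of the regulators. It was at 51.0, 42.6 and 22.4 FPKM in P9 replicates 1, 2 and 3, at 102, 168 and 141 FPKM in FFSS, and at 64.3, 38.8 and 86.6 FPKM in P3. All 3 FFSS libraries lay above all others, while P9 and P3 overlapped. The FFSS mean was 2.17 times the P3 mean, and the log2 difference of 1.15 (SE 0.36) missed the threshold (adjusted p = 0.0508). Without FFSS replicate 1 it was 1.35 and called (adjusted p = 0.0261), as it also was without P9 replicate 3 (0.0344) and without P3 replicate 3 (0.05), under voom (0.0434), with a filter of 5 FPKM (0.0466) and with scaling by library totals (0.0492). Against FFSS, P9 cells were lower by a log2 difference of -1.85 (SE 0.36, adjusted p = 0.00547), with a mean 0.282 times that of FFSS.

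Insig2, a relative of Insig1 with the same hold on Scap (chr13:37266312-37287458, minus strand), was at 13.9, 9.46 and 12.9 FPKM in P9, at 12.4, 37.9 and 40.1 FPKM in FFSS, and at 14.1, 13.5 and 11.3 FPKM in P3. FFSS replicates 2 and 3 lay above every other library and FFSS replicate 1 lay among the P9 and P3 values. The log2 difference between FFSS and P3 was 0.998 (SE 0.38, adjusted p = 0.0941) and that between P9 and FFSS was -1.10 (adjusted p = 0.0567), and neither was called. Without FFSS replicate 1 they were 1.53 (adjusted p = 0.000361) and -1.63 (adjusted p = 0.000162), so whether Insig2 was called turned on that library.

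Scap, the escort protein (chr8:118570503-118628651, plus strand), was at 27.6, 28.7 and 32.8 FPKM in P9, at 37.5, 64.4 and 55.9 FPKM in FFSS, and at 33.2, 32.6 and 27.1 FPKM in P3. Every FFSS library lay above every P9 and P3 library. Scap was higher in FFSS than in P3 by a log2 difference of 0.72 (SE 0.19, adjusted p = 0.0292) and lower in P9 than in FFSS by -0.77 (adjusted p = 0.0153). The call against P3 was lost without FFSS replicate 2 (0.0752), FFSS replicate 3 (0.0980), P3 replicate 1 (0.0709), P3 replicate 2 (0.0721) or P3 replicate 3 (0.103), without the filter on low values (0.0512) and in a fit of the 2 groups alone (0.0648), and the call of P9 against FFSS without FFSS replicate 3 (0.0594), P9 replicate 1 (0.0506) or P9 replicate 2 (0.0519). P9 and P3 overlapped, with a log2 difference of -0.06 (95% confidence interval -0.49 to 0.37).

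Srebf1 (chr10:46570996-46593009, minus strand) was at 8.26, 10.3 and 9.28 FPKM in P9, at 16.8, 17.6 and 19.7 FPKM in FFSS, and at 16.2, 12.2 and 17.5 FPKM in P3. All P9 libraries lay below all FFSS and P3 libraries, and FFSS and P3 overlapped. P9 was lower than P3 by a log2 difference of -0.66 (SE 0.15, adjusted p = 0.0260), with a mean 0.607 times that of P3, and lower than FFSS by -0.89 (SE 0.15, adjusted p = 0.00273). The call against P3 was lost without P9 replicate 1 (adjusted p = 0.0885), 2 (0.0576) or 3 (0.0740) and without P3 replicate 1 (0.116) or 3 (0.114), with log2 differences of -0.56 to -0.73. The call against FFSS held in every fit tried. Srebf1 shares 588 bases with Rai1 on the opposite strand, at a mean of 6.42 FPKM over all libraries, and the strandedness of the libraries is not given in the sources used here.

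Srebf2 (chr7:123381077-123438603, plus strand), whose product acts mainly on cholesterol genes, was at 33.1, 33.6 and 25.4 FPKM in P9, at 34.0, 32.2 and 36.1 FPKM in FFSS, and at 38.2, 30.6 and 43.6 FPKM in P3. The 3 groups overlapped, and none of the comparisons called it. Its log2 difference between FFSS and P3 was -0.12 (95% confidence interval -0.47 to 0.24), and that between P9 and P3 was -0.27 (-0.63 to 0.08). Of the 5 genes of the SREBP system, 1 was called higher in FFSS than in P3, against 11.4% of all tested genes, 1 lower in P9 than in P3, against 4.44%, and 3 lower in P9 than in FFSS, against 15.3%.

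The windows of Srebf1 and Scap are shown as those of the regulators called against P3, and that of Insig1 as that of the regulator next by adjusted p. Srebf1 has a window at each of its starts, chr10:45529165-45529414 and chr10:45519011-45519260 on the minus strand of GRCr8. That of Scap is chr8:119184188-119184437 on the plus strand, and that of Insig1 is chr4:8057770-8058019 on the minus strand.
Srebf1 promoter, upstream start: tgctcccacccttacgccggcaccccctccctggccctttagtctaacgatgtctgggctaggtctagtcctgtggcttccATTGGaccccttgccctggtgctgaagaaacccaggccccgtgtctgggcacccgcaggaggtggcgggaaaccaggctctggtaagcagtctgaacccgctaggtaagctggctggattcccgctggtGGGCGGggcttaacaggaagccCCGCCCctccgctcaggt
Srebf1 promoter, downstream start: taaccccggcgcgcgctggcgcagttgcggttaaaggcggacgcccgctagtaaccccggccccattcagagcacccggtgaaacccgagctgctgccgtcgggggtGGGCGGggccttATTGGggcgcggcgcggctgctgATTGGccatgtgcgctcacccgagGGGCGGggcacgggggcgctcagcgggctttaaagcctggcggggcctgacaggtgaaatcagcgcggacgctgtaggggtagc
Scap promoter: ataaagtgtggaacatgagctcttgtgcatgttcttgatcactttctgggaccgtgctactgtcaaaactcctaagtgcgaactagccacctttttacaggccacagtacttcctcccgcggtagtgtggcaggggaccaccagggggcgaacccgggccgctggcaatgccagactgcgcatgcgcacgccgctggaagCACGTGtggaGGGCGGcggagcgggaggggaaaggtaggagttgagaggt
Insig1 promoter: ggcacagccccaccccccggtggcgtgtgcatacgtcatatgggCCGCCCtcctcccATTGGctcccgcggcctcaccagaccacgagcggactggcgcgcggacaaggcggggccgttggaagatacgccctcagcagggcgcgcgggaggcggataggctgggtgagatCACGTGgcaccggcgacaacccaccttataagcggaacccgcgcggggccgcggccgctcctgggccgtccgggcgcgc
The downstream Srebf1 window held the most matches of these, with 2 CCAAT boxes, both on the minus strand, and 2 GC boxes, while the Insig1 and Scap windows held an E-box each.

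**Figure D2:**
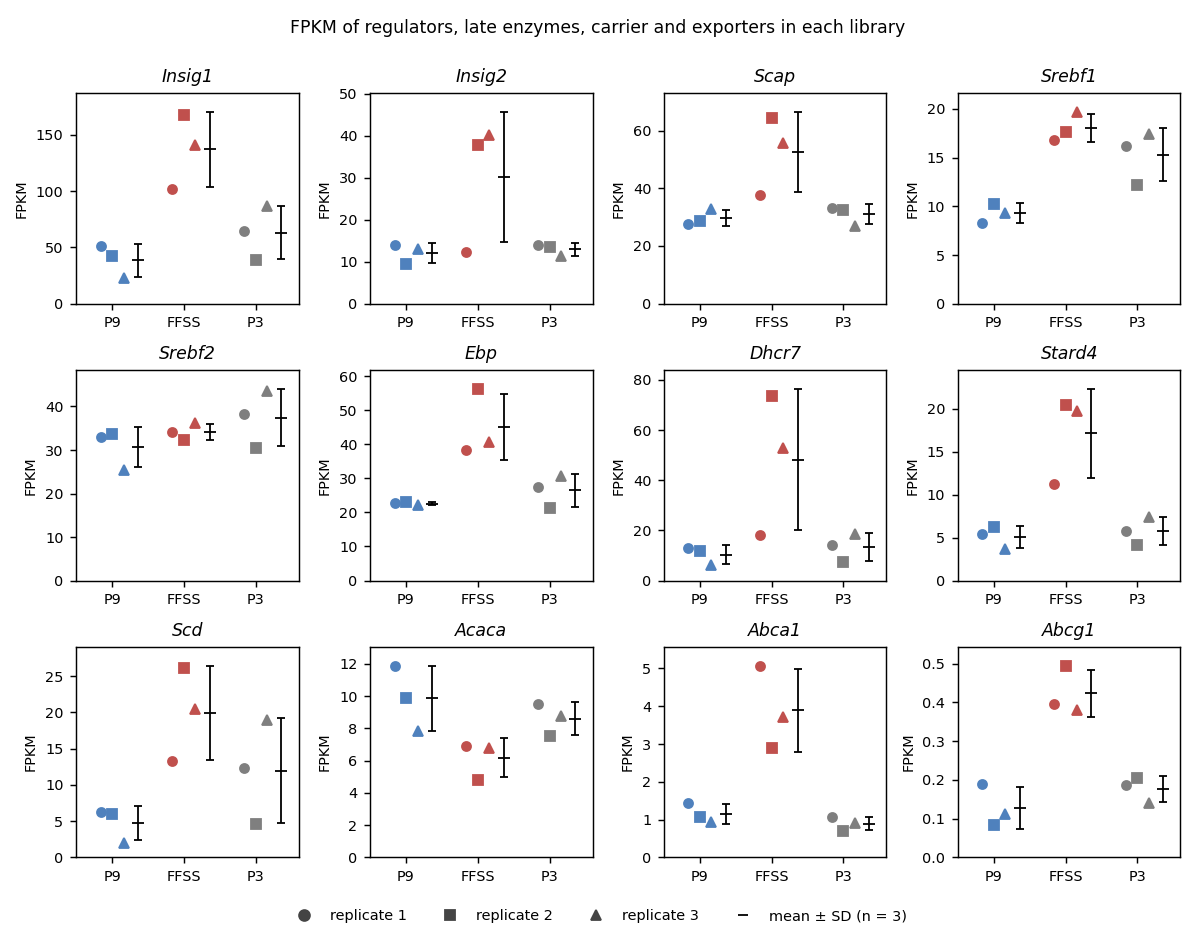
FPKM of 12 genes in each library of the P9, FFSS and P3 groups; symbols mark replicates 1, 2 and 3 and black marks the mean ± SD (n = 3), on linear axes that differ between panels. FFSS replicate 1 lies among or near the P3 values for Insig2 (12.4 FPKM) and Dhcr7 (18.2 FPKM), and all FFSS libraries lie above all P3 libraries for Insig1, Scap, Ebp, Stard4, Abca1 and Abcg1.

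None of the 7 mevalonate enzymes was called against P3 in either model. Their log2 differences ran from 0.06 (Acat2, which joins acetyl-CoA units) to 0.63 (Idi1, the isomerase of the isoprene units) between FFSS and P3, all positive, and from -0.42 (Hmgcs1, which makes the precursor of mevalonate) to 0.00 (Fdps, which makes farnesyl diphosphate) between P9 and P3. FFSS overlapped P3 in all 7 and so did P9. Between the models, Pmvk, a kinase of the route, was lower in P9 than in FFSS by -0.57 (SE 0.16, adjusted p = 0.0289) and Idi1 by -0.95 (SE 0.31, adjusted p = 0.0454). Idi1 averaged 14.6 ± 4.61 FPKM in P9, 28.8 ± 7.99 FPKM in FFSS and 18.4 ± 6.06 FPKM in P3 (SD, n = 3 each). For Pmvk the means were 13.3 ± 1.08 FPKM in P9, 20.3 ± 2.44 FPKM in FFSS and 16.6 ± 3.46 FPKM in P3.

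Both calls depended on the libraries used. Pmvk was not called without FFSS replicate 2 or 3 or without any one of the P9 replicates (adjusted p 0.0574 to 0.0872), and Idi1 was not called without the same libraries or without P3 replicate 1 (0.0621 to 0.133). Idi1 also lost its call without the filter on low values (0.0806) and in a fit of the 2 groups alone (0.0637). In Hmgcs1, Mvk and Mvd every P9 library also lay below every FFSS library, at adjusted p of 0.119, 0.0946 and 0.0931; Mvd was called without P3 replicate 2 (0.0261) and in the fit of the 2 groups (0.0363). Hmgcs1 and Fdps were the most abundant of the 7, Hmgcs1 with means of 48.6 FPKM in P9, 77.6 FPKM in FFSS and 65.6 FPKM in P3, and Fdps with 75.3 FPKM in P9, 83.9 FPKM in FFSS and 76.0 FPKM in P3. Idi1 shares 100 bases with Wdr37 on the opposite strand, and Acat2 has a close copy, Acat2l1, at a mean of 1.99 FPKM.

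Of the 11 enzymes from squalene to cholesterol, 1, Ebp, was called between FFSS and P3 and none between P9 and P3. Ebp (chrX:15049462-15055781, plus strand) was at 22.7, 23.1 and 22.1 FPKM in P9, at 38.5, 56.2 and 40.8 FPKM in FFSS, and at 27.5, 21.3 and 30.7 FPKM in P3. Every FFSS library lay above every P9 and P3 library, and the P9 values were close together. Ebp was higher in FFSS than in P3 by a log2 difference of 0.74 (SE 0.17, adjusted p = 0.0176), with a mean 1.71 times that of P3, and lower in P9 than in FFSS by -0.95 (SE 0.17, adjusted p = 0.00399). The call against P3 was lost without P3 replicate 1 (0.0545) or P3 replicate 2 (0.0657), while that of P9 against FFSS held in every fit. The related gene Ebpl, at a mean of 39.6 FPKM over all libraries, has a row of its own.

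Dhcr7, the reductase that makes cholesterol in the last step (chr1:217018916-217034904, plus strand), was at 13.1, 11.7 and 6.14 FPKM in P9, at 18.2, 73.7 and 52.8 FPKM in FFSS, and at 14.3, 7.57 and 18.7 FPKM in P3. FFSS replicates 2 and 3 lay far above all other libraries, whereas FFSS replicate 1 lay just under P3 replicate 3. The FFSS mean was 3.57 times the P3 mean, and the log2 difference of 1.63 (SE 0.51) narrowly missed the threshold (adjusted p = 0.0505). Without FFSS replicate 1 it was 2.21 and called (adjusted p = 0.00331), and it was also called under voom (0.0455), with a filter of 5 FPKM (0.0457) and with scaling by library totals (0.0478). P9 was lower than FFSS by -1.97 (SE 0.51, adjusted p = 0.0190), a call lost without FFSS replicate 2 (0.0558), FFSS replicate 3 (0.0686) or P9 replicate 3 (0.0642).

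Lss, which closes the sterol ring system, was lower in P9 than in FFSS by -0.87 (SE 0.25, adjusted p = 0.0290), with 13.2 ± 2.89 FPKM in P9, 24.7 ± 2.58 FPKM in FFSS and 16.01 ± 5.69 FPKM in P3 (SD, n = 3 each). That call was lost without FFSS replicate 3 (0.0781), P9 replicate 2 (0.0515) or P9 replicate 3 (0.0914), or without the filter (0.0526). All FFSS libraries of Lss also lay above all P3 libraries, at a log2 difference of 0.65 that was not called (adjusted p = 0.0985). Tm7sf2, a sterol reductase, had a log2 difference of -1.16 between P9 and FFSS (adjusted p = 0.0536), called without FFSS replicate 1 (0.0121) or P3 replicate 2 (0.0427) and under voom (0.0490), and it shares 1066 bases with Vps51 on the same strand. The other 7 enzymes had log2 differences between FFSS and P3 of -0.18 (Sqle, the epoxidase that oxidises squalene) to 0.34 (Cyp51, a lanosterol demethylase), and all of their groups overlapped in that comparison. Hsd17b7 lies within LOC100366054 on the opposite strand, which was at a mean of 0.235 FPKM. Levels among the 11 spanned a wide range: Hsd17b7, a reductase of the demethylation steps, averaged 3.33 FPKM in P9, 4.23 FPKM in FFSS and 4.42 FPKM in P3, and Msmo1, the methylsterol oxidase, 99.7 FPKM in P9, 123 FPKM in FFSS and 109.8 FPKM in P3.

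The windows of Ebp, chrX:16971212-16971461, and Dhcr7, chr1:208444184-208444433, both on the plus strand of GRCr8, are shown because these had the smallest adjusted p of the late enzymes between FFSS and P3.
Ebp promoter: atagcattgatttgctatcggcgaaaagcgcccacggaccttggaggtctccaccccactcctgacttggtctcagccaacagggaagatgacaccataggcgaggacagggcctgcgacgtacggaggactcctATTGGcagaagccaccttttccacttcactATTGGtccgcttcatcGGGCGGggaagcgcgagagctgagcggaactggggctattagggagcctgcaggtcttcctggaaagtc
Dhcr7 promoter: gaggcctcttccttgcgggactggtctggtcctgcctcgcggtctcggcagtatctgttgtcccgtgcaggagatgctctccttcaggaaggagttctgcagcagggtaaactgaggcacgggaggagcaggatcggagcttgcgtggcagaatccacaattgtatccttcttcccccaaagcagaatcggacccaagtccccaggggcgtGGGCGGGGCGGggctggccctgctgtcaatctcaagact
Ebp held 2 CCAAT boxes on the minus strand and 1 GC box, and in Dhcr7 the 2 GC boxes overlap by 1 base.

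In P3 and P9, though not in FFSS, nearly all of the sterol enzymes were lowest in the same library. In P3, all 18 enzymes of the mevalonate and sterol parts were lowest in replicate 2 and highest in replicate 3, an order that 22.7% of all tested genes had. In P9, 17 of 18 were lowest in replicate 3, against 34.7% of all tested genes; the exception was Mvk, the mevalonate kinase, which was lowest in replicate 1. In FFSS no order held throughout: 10 of 18 enzymes were lowest in replicate 1 and highest in replicate 2, against 28.5% of all tested genes, and 5 had the reverse order, against 30.2%. The summed FPKM of the 18 enzymes was 651, 622 and 363 in P9 replicates 1, 2 and 3, 714, 864 and 755 in FFSS, and 649.8, 433 and 824 in P3. P9 replicate 3 and P3 replicate 2 thus held the lowest sums, and P3 replicate 3 lay within the FFSS range.

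The spread between replicates was wide for these enzymes in P9 and P3. The median SD of log2(FPKM + 1) over the 18 enzymes was 0.45 in P9, 0.20 in FFSS and 0.47 in P3. Over all tested genes it was 0.17 in P9, 0.27 in FFSS and 0.11 in P3. In P3, then, the enzymes varied far more between replicates than the table as a whole, and in FFSS less. P3 replicate 2 had the fewest fragments of its group (14033174) and P9 replicate 3 the most of its group (15323790). The part of depth in the low values was not tested. The contractile gene Myh11 was at 117.5, 117.2 and 68.5 FPKM in P9 replicates 1, 2 and 3, at 3.03, 25.8 and 19.8 FPKM in FFSS, and at 21.7, 31.2 and 11.7 FPKM in P3. It was lowest in P9 replicate 3, as 17 enzymes were, had the order of 10 enzymes in FFSS, and had the reverse of their order in P3. The part of this gene in the order was not tested. Insig1, Stard4, Srebf2, Fasn and Scd had the order of the enzymes in P3 and were lowest in P9 replicate 3. Srebf1 had that P3 order but was lowest in P9 replicate 1, whereas Scap and Insig2 were lowest in P3 replicate 3. Of the 28 tested members, 26 were lowest in P3 replicate 2 and 24 in P9 replicate 3. In the fatty acid and triglyceride list counted below, Acly, Acss2, Elovl1, Fads1, Fads2, Lpin1, Scd2 and Mid1ip1 had both features. Its other tested genes, Elovl5, Me1, Gpam, Agpat2, Dgat1 and Dgat2, lacked the P3 order.

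**Figure D3:**
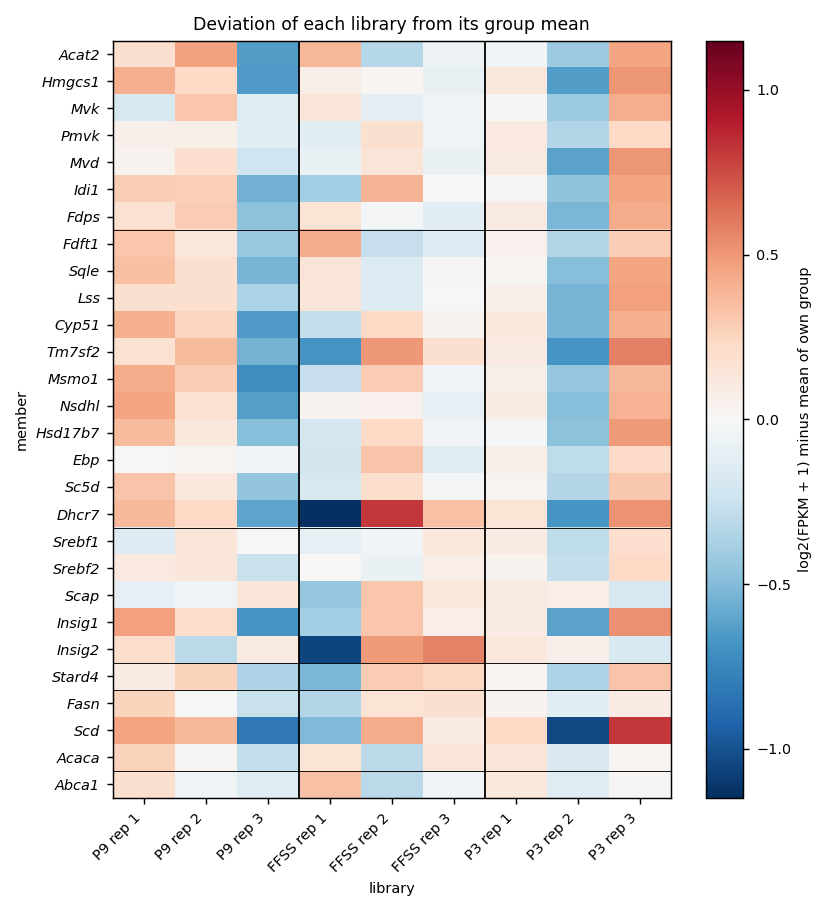
Heat map of log2(FPKM + 1) minus the mean of the library's own group, for the 28 tested genes in rows and the 9 libraries in columns, with red above and blue below the group mean. P3 replicate 2 and P9 replicate 3 are blue for nearly all sterol enzymes and P3 replicate 3 is red, with median deviations of -0.48, -0.51 and 0.44, and the deepest blue cells are Dhcr7 and Insig2 in FFSS replicate 1 and Scd in P3 replicate 2.

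Stard4, the sterol carrier (chr18:25984638-25997555, minus strand), was at 5.39, 6.22 and 3.70 FPKM in P9, at 11.2, 20.5 and 19.7 FPKM in FFSS, and at 5.78, 4.17 and 7.34 FPKM in P3. Every FFSS library lay above every P9 and P3 library, FFSS replicate 1 being the nearest to them. Stard4 was higher in FFSS than in P3 by a log2 difference of 1.41 (SE 0.27, adjusted p = 0.00892), with a mean 2.97 times that of P3, and lower in P9 than in FFSS by -1.55 (SE 0.27, adjusted p = 0.00329). Both calls held in every fit tried. P9 and P3 overlapped, at a log2 difference of -0.14 (95% confidence interval -0.76 to 0.47).

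Abca1, the exporter (chr5:69857771-69983015, minus strand), was low throughout, at 1.43, 1.08 and 0.934 FPKM in P9, 5.07, 2.90 and 3.72 FPKM in FFSS and 1.06, 0.709 and 0.904 FPKM in P3. These levels rest on 201, 170 and 156 fragments in P9, 783, 436 and 572 in FFSS and 165, 101 and 138 in P3. All FFSS libraries lay above all others, with FFSS replicate 1 the highest, unlike for Dhcr7 and the Insig genes. The mean in FFSS was 4.38 times that in P3, and the log2(FPKM + 1) difference, which understates changes of low genes, was 1.35 (SE 0.20, adjusted p = 0.00316). P9 was lower than FFSS by -1.17 (SE 0.20, adjusted p = 0.00273) and was not called against P3, at 0.18 (95% confidence interval -0.26 to 0.63). Both calls held in each fit that tested the gene; a filter of 5 FPKM left it out. Abca1 shares 2606 bases with AABR07048271.1 on the opposite strand, at a mean of 0.0335 FPKM.

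Abcg1, the exporter that loads cholesterol onto high-density lipoprotein (chr20:9743269-9840489, plus strand), was at 0.188, 0.0843 and 0.111 FPKM in P9, 0.395, 0.494 and 0.381 FPKM in FFSS and 0.187, 0.205 and 0.139 FPKM in P3. That is 10, 5 and 7 fragments in P9, 23, 28 and 22 in FFSS and 11, 11 and 8 in P3. The FFSS libraries lay above all others on these few fragments. In a fit without the filter on low values, the log2(FPKM + 1) difference was 0.27 between FFSS and P3 (adjusted p = 0.0292), -0.06 between P9 and P3 (adjusted p = 0.717) and -0.34 between P9 and FFSS (adjusted p = 0.00869).

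The window of Abca1 (chr5:72596474-72596723, minus strand of GRCr8) is shown as that of the gene with the smallest adjusted p against P3 under shear.
Abca1 promoter: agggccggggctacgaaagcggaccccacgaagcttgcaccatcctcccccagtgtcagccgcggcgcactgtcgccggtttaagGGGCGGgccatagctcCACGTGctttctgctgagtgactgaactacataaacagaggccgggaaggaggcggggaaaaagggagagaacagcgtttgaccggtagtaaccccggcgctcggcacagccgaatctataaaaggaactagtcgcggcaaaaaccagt
It held 1 GC box and 1 E-box.

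None of the 3 fatty acid enzymes, whose genes SREBP factors also switch on, was called against P3. Acaca, the carboxylase that makes malonyl-CoA, was at 11.9, 9.87 and 7.87 FPKM in P9, 6.92, 4.77 and 6.81 FPKM in FFSS and 9.53, 7.51 and 8.75 FPKM in P3. All FFSS libraries lay below all others. Its log2 difference of -0.43 between FFSS and P3 was not called (adjusted p = 0.122), and it was higher in P9 than in FFSS by 0.60 (SE 0.18, adjusted p = 0.0356). That call was lost without FFSS replicate 2 (0.0949), FFSS replicate 3 (0.0603), P9 replicate 1 (0.109), P9 replicate 2 (0.0925), P3 replicate 1 (0.0544) or P3 replicate 3 (0.0570), without the filter (0.0590) and in the fit of the 2 groups (0.0865).

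Fasn, the fatty acid synthase, averaged 43.2 ± 7.82 FPKM in P9, 40.1 ± 7.82 FPKM in FFSS and 52.7 ± 4.20 FPKM in P3 (SD, n = 3 each), with all FFSS libraries below all P3 ones and a log2 difference of -0.40 that was not called (adjusted p = 0.133). Scd, the desaturase that makes oleate, was at 6.32, 5.92 and 2.03 FPKM in P9, 13.3, 26.1 and 20.4 FPKM in FFSS and 12.4, 4.54 and 19.0 FPKM in P3. P9 and FFSS did not overlap for Scd, while P3 spanned most of the range of both. P9 was lower than FFSS by -1.92 (SE 0.50, adjusted p = 0.0196), a call lost without FFSS replicate 2 (0.0592), FFSS replicate 3 (0.0619) or P9 replicate 3 (0.0621). The log2 difference between P9 and P3 was -1.09 (95% confidence interval -2.22 to 0.05, adjusted p = 0.237).

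Lists of neighbouring genes were counted in the same fit. Of all tested genes, 11.4% were called higher and 10.4% lower in FFSS than in P3, and 5.39% higher and 4.44% lower in P9 than in P3. Of 14 tested genes of fatty acid and triglyceride synthesis, 2 were higher and 1 lower in FFSS than in P3, close to those shares, and 0 were called between P9 and P3; the medians were 0.16 and -0.13. Acss2, which makes acetyl-CoA from acetate, was at 11.9, 47.5 and 34.2 FPKM in FFSS and 6.04, 3.19 and 8.65 FPKM in P3, with a log2 difference of 2.09 (adjusted p = 0.0182), lost without FFSS replicate 3 (0.0677), P3 replicate 1 (0.0560) or P3 replicate 2 (0.0686). Dgat2, which makes triglycerides, was at 5.26, 7.21 and 5.997 FPKM in FFSS and 2.18, 2.62 and 1.87 FPKM in P3 (log2 difference 1.15, adjusted p = 0.00221), a call kept in every fit. Gpam, the acyltransferase that starts glycerolipid synthesis, was lower in FFSS by -0.57 (adjusted p = 0.0187), lost without FFSS replicate 3 (0.0616) or any one of the P3 replicates (0.0608 to 0.0733).

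Of 14 tested genes of sterol trafficking and storage, 1 was higher and 2 were lower in FFSS than in P3, with a median of 0.05, and 0 were called between P9 and P3. Soat1, which esterifies cholesterol for storage, was at 40.3, 35.0 and 36.1 FPKM in FFSS, against 76.6, 85.6 and 68.1 FPKM in P3, and was lower by a log2 difference of -1.03 (SE 0.16, adjusted p = 0.00431), a call kept in every fit tried. The groups were far apart. Npc2, a lysosomal sterol carrier, was higher in FFSS at 0.67 (adjusted p = 0.0494) and Osbp, an oxysterol-binding exchanger, lower at -0.45 (adjusted p = 0.0309). Both of those calls were lost without FFSS replicate 2 or 3, P9 replicate 2 or any one of the P3 replicates, and that of Npc2 also without P9 replicate 3, with adjusted p of 0.0538 to 0.140 for Npc2 and 0.0523 to 0.112 for Osbp. Npc2 also lost its call without the filter (0.0940), with a pseudocount of 0.1 (0.0515) and with scaling by library totals (0.0509).

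Of the 10 genes of SREBP processing and sterol-regulated degradation, 1 was higher and 3 were lower in FFSS than in P3, with a median of -0.05. Rnf139, a sterol-sensing ubiquitin ligase, was higher at 0.50 (adjusted p = 0.0284). Syvn1, a ligase of the endoplasmic reticulum, was lower at -0.51 (0.0112), Erlin1, a membrane partner of Insig-linked degradation, at -0.34 (0.0399) and Mbtps1, the protease that makes the first cut of SREBP, at -0.33 (0.0409). Syvn1 lost its call without P3 replicate 2 (0.0533). The other 3 calls were lost without FFSS replicate 2, FFSS replicate 3, P3 replicate 1 or P3 replicate 2, at adjusted p of 0.0537 to 0.142, and those of Erlin1 and Mbtps1 also without P3 replicate 3 or P9 replicate 2 or 3 (0.0524 to 0.122). In the fit of the 2 groups, Rnf139 (0.0585), Erlin1 (0.0694) and Mbtps1 (0.0512) lost their calls, and with scaling by library totals Mbtps1 did (0.0522). Between P9 and P3, 0 of the 10 were called.

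Of 11 genes of the isoprenoid branches and prenylation, 2 were higher and 1 lower in FFSS than in P3, with a median of -0.12. Coq2, an enzyme of ubiquinone synthesis, was higher in FFSS at 0.42 (adjusted p = 0.0258) and Rce1, a protease of prenylated proteins, at 0.42 (0.0364), whereas Pggt1b, a subunit of a geranylgeranyl transferase, was lower at -0.57 (0.0325). Each of the 3 calls was lost when single libraries were left out. For Coq2 these were FFSS replicates 2 and 3 and all P3 replicates (0.0619 to 0.106), and for Rce1 also P9 replicates 2 and 3 (0.0533 to 0.133). For Pggt1b they were FFSS replicate 3, P9 replicate 2 and P3 replicates 2 and 3 (0.0508 to 0.115). All 3 lost their calls in the fit of the 2 groups (0.0513 for Coq2, 0.0569 for Rce1 and 0.0723 for Pggt1b), and Pggt1b also without the filter (0.0516).

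Of the 5 tested genes of the oxysterol and LXR list, 4 were higher in FFSS than in P3, against 11.4% of all tested genes. The list was chosen with earlier results of these data known, so this share is a description and not a test. The median log2 difference was 0.67, against -0.01 over all tested genes. Smpdl3a, a nucleotide phosphodiesterase induced by LXR, was at 13.6, 14.7 and 11.4 FPKM in P9, 43.2, 50.5 and 42.8 FPKM in FFSS and 19.4, 18.4 and 18.2 FPKM in P3. The 3 groups did not overlap. It was higher in FFSS than in P3 by 1.24 (SE 0.12, adjusted p = 0.000648), a call kept in every fit. In P9 it was lower than in P3 by -0.47 (adjusted p = 0.0399), a call lost without FFSS replicate 3, any one of the P9 replicates or any one of the P3 replicates (0.0634 to 0.162).

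Nr1h2, the broadly expressed LXR itself, was at 50.02, 60.9 and 56.0 FPKM in FFSS and 33.5, 34.6 and 35.4 FPKM in P3, with a log2 difference of 0.67 (adjusted p = 0.00886) called in every fit. Mylip, a ubiquitin ligase for lipoprotein receptors, was at 4.03, 17.3 and 12.3 FPKM in FFSS and 3.23, 2.81 and 2.74 FPKM in P3, so FFSS replicate 1 lay close to P3 (1.45, adjusted p = 0.0332). Lpcat3, a phospholipid-remodelling acyltransferase, was at 48.1, 43.0 and 41.7 FPKM in FFSS and 30.6, 27.4 and 36.9 FPKM in P3 (0.48, adjusted p = 0.0293). The calls of Mylip and Lpcat3 were lost without FFSS replicate 2, FFSS replicate 3, P3 replicate 1 or P3 replicate 2, and that of Mylip also without P3 replicate 3, at adjusted p of 0.0527 to 0.111. Both calls were also lost in the fit of the 2 groups, at 0.0779 for Mylip and 0.0568 for Lpcat3, and that of Mylip without the filter (0.0683). Abcg4, the fifth tested gene, overlapped between the groups.

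Of the genes of that list that make or clear oxysterols, Ch25h, Cyp27a1 and Cyp7b1 did not pass the filter. Cyp7b1, which removes oxysterols, was at 0.155, 0.347 and 0.306 FPKM in P9, 13.6, 0.533 and 4.04 FPKM in FFSS and 0.560, 0.461 and 0.574 FPKM in P3. FFSS replicates 1 and 3 were high and FFSS replicate 2 lay among the P3 values. Ch25h, which makes an oxysterol, was at 0, 1.88 and 0.921 FPKM in FFSS and 0 to 0.206 FPKM in P3.

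**Figure D4:**
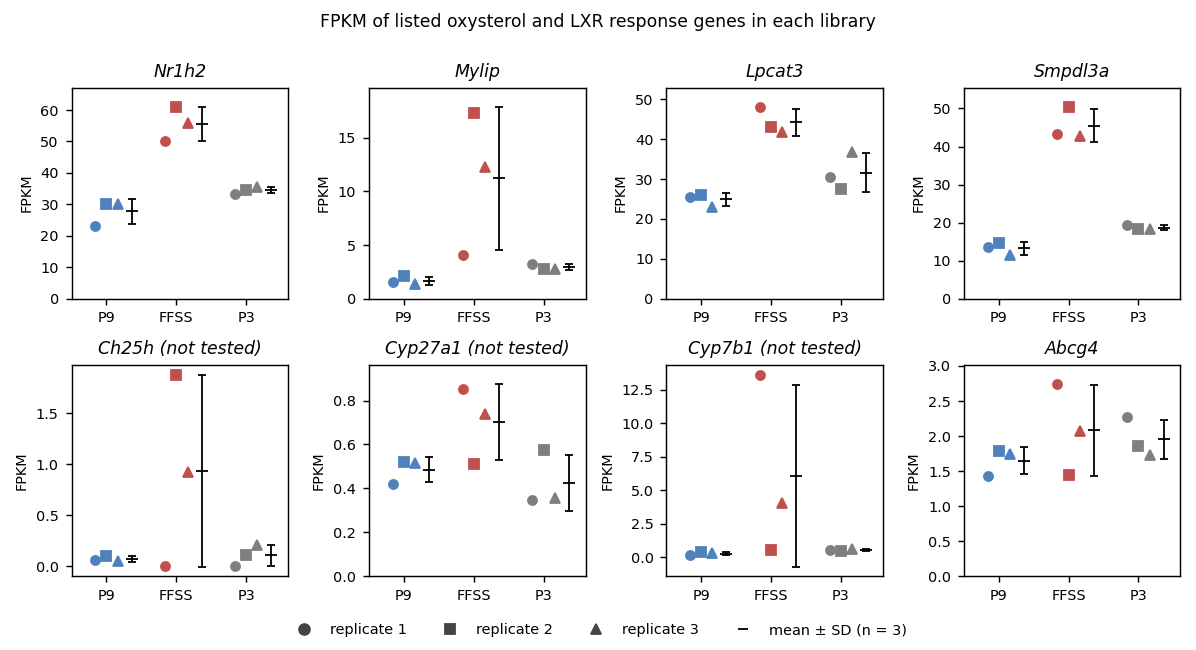
FPKM of 8 genes of the oxysterol and LXR list in each library of the P9, FFSS and P3 groups; symbols mark replicates 1, 2 and 3 and black marks the mean ± SD (n = 3), on linear axes that differ between panels. FFSS libraries lie above all P3 libraries for Nr1h2, Mylip, Lpcat3 and Smpdl3a, with FFSS replicate 1 of Mylip at 4.03 FPKM close to P3, and Cyp7b1 ranges from 0.533 to 13.6 FPKM within FFSS.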

How the data were processed

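Polyadenylated RNA was sequenced in 9 libraries. The submitters' processing notes name HISAT2 2.0.5, an aligner, featureCounts 1.5.0-p3, a read counter, and the rat build Rnor_6.0; settings and strandedness are not given in the sources used here. The authors deposited FPKM per gene. Value times gene length was a whole multiple of 1 step per library for 100% of values, within 0.01 of a step, which gave the fragments behind each value (13264930 to 15323790 per library). Without molecular identifiers, fragments may be copies of 1 molecule.

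The fit was limma 3.58.1 in R 4.3.3 on log2(FPKM + 1) of the 13059 genes that reached 1 FPKM in 3 or more libraries, with group means over all 9 libraries, a trend in the spread, two-sided tests and Benjamini-Hochberg adjustment over all genes tested; called means an adjusted p under 0.05. The fit was tried on simulated counts with the same spread setting for every gene. That trial did not model the wide spread of the sterol enzymes. Members, gene lists, tests and the rule for named genes were chosen with earlier results of these data known. The rule gave library values to members called against P3 and the 5 SREBP genes, up to 4 called genes of each list, and promoters of up to 6 members; values of Dhcr7, Abcg1, Scd, Acaca and the untested list genes were added after they were seen. Of the list of isoprenoid branches and prenylation, 1 gene is not reported here and is left out of its counts and median. A count model was not used because the deposited unit was FPKM. Alternatives were a pseudocount of 0.1, no filter, a filter of 5 FPKM, library totals, voom on the recovered fragments, fits of 2 groups, the replicate block, and leaving out each library. Genes named Arl4c, Itgam and Pecam1 matched no row and were not used. Python 3.11.15 with pandas 2.3.3, NumPy 2.4.6 and matplotlib 3.10.9 made the tables and figures.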

Additional observations from a re-analysis of the deposited data

Results flagged for a closer look

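The response to the models differed for 12 of the 28 tested genes, by the P9 minus FFSS contrast of limma, which sets the effects over the shared P3 libraries against each other. Of these, 11 were lower in P9, against 15.3% of all tested genes, and 1 higher, against 16.1%. The log2 differences were -0.57 for Pmvk, -0.95 for Idi1, -0.87 for Lss, -0.95 for Ebp, -1.97 for Dhcr7, -0.89 for Srebf1, -0.77 for Scap, -1.85 for Insig1, -1.55 for Stard4, -1.92 for Scd and -1.17 for Abca1, all lower in P9, and 0.60 for Acaca, higher in P9. For Srebf1 the P9 libraries lay apart from both other groups, and for Lss, Ebp, Scap, Insig1, Stard4, Abca1 and Acaca the FFSS libraries did.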

How the results depend on the processing

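Over 16 alternatives per gene (15 for Abca1 and Hsd17b7, which a filter of 5 FPKM left out), 84 differences of the 28 tested genes gave 1338 values: 1270 kept their side of the threshold, 51 lost a call, 17 gained one and 0 called differences changed sign. Among uncalled ones, 46 changed sign. The count of members called lower in P9 than in P3 was 0 with the replicate block, where Srebf1 had an adjusted p of 0.0534, and 0 to 1 when single libraries were left out. Higher in FFSS than in P3 were 2 to 7 when single libraries were left out. Higher in P9 than in FFSS were 0 without the filter, 0 in fits of 2 groups, and 0 to 1 when single libraries were left out; lower in P9 than in FFSS were 5 to 13 when single libraries were left out and 9 with the replicate block, which lost Pmvk (0.0610) and Idi1 (0.0830). Of the list genes, 9 calls were lost with the block, those of Npc2, Osbp, Mbtps1, Rnf139, Erlin1, Pggt1b, Rce1 and Lpcat3 in FFSS and of Smpdl3a in P9 (0.0524 to 0.0793). For same-numbered libraries of different groups, the correlation of deviations from the group means was -0.04 to 0.03. That value over all tested genes cannot show whether these libraries were paired. The cause of the lost calls was not tested. Depth limits Abcg1 most, with 5 to 28 fragments per library.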
